A study of Rattus norvegicus with 36 samples.

Results

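The data described here are the RNA-seq libraries of pineal glands from rats that had no surgery, taken at mid-day or at midnight. They were chosen by their labels, which give the surgical condition Control and an in vivo experiment, and they make up 6 of the 36 libraries of the series. The glands came from Sprague-Dawley rats of both sexes, 40 days old, kept under 14 hours of light and 10 hours of dark. No rat of either group carried an engineered allele or received an agent. The 3 Control day libraries were taken at ZT7, that is 7 hours after lights on, and the 3 Control night libraries at ZT19, in the dark. Each library was made from a tube of 3 pooled glands, so a replicate is a pool and not an animal, and each surgical group held 18 to 20 animals over both times. The other in vivo libraries came from rats operated on as neonates, on postnatal day 5. Sham rats had a sham operation. In DCN rats the ganglia that innervate the gland were cut off from the brain, and in SCGX rats those ganglia were removed. Cultured glands of female rats, untreated or given norepinephrine or dibutyryl cyclic AMP, and 3 unreplicated libraries complete the series. Those 3 are of pineal glands by day, pineal glands by night and a mixture of other tissues taken at ZT7.

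The pineal gland makes melatonin, and it does so at night. The drive comes from the clock in the suprachiasmatic nucleus through sympathetic fibers of the superior cervical ganglia, which release norepinephrine in the gland in the dark. Norepinephrine raises cyclic AMP in pinealocytes, and through it the transcription of many genes. The night/day comparison of unoperated glands addresses which transcripts follow that daily cycle, and by how much.

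The files list genes by Ensembl identifier, and no table used here pairs these with gene symbols. Named pineal genes, clock genes and cell type markers were therefore not analysed here, the labelled tissue could not be checked against its markers, and genes are described as groups by size of change, level and gene model length. Where single genes are followed, they are the 2 identifiers with the largest rise and the 2 with the largest fall among the genes that passed the test over 4-fold with no overlap between night and day libraries.

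The 6 libraries held 15260599 to 16734129 read-pairs assigned to genes. The TMM scaling factors were 1.03 to 1.09 by day and 0.925 to 0.968 at night, so the 2 times were scaled apart. The gene with the most read-pairs took 2.65 to 4.21% of a library. Replicates varied with a biological coefficient of variation of 12.8% by day and 15.9% at night. No 2 libraries were identical, and replicate pairs of one group differed by 7.63 to 22.4 times what sampling noise gives in a chi-square per degree of freedom.

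At night, 995 of 15622 tested genes were higher and 472 were lower. These calls used edgeR's quasi-likelihood test with a Benjamini-Hochberg adjusted p-value under 0.001, and they were 9.39% of the genes tested, 6.37% higher and 3.02% lower. Read-pairs moved toward the genes that rose. In the day libraries the 995 genes held 8.34%, 8.07% and 8.30% of all read-pairs, and in the night libraries 17.7%, 19.2% and 19.6%. Their mean share was 8.24% ± 0.142 (SD, n = 3) by day and 18.8% ± 0.983 (SD, n = 3) at night. The 472 lower genes held 5.24% ± 0.118 (SD, n = 3) by day and 2.26% ± 0.145 (SD, n = 3) at night. The gain of the first group was larger than the loss of the second, and the 14155 genes that were not called went from 86.5% ± 0.202 to 78.9% ± 0.834 of the read-pairs (SD, n = 3 each). Because the genes were selected for their change in these libraries, the shares describe the size of the change and carry no test.

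**Figure D1:**
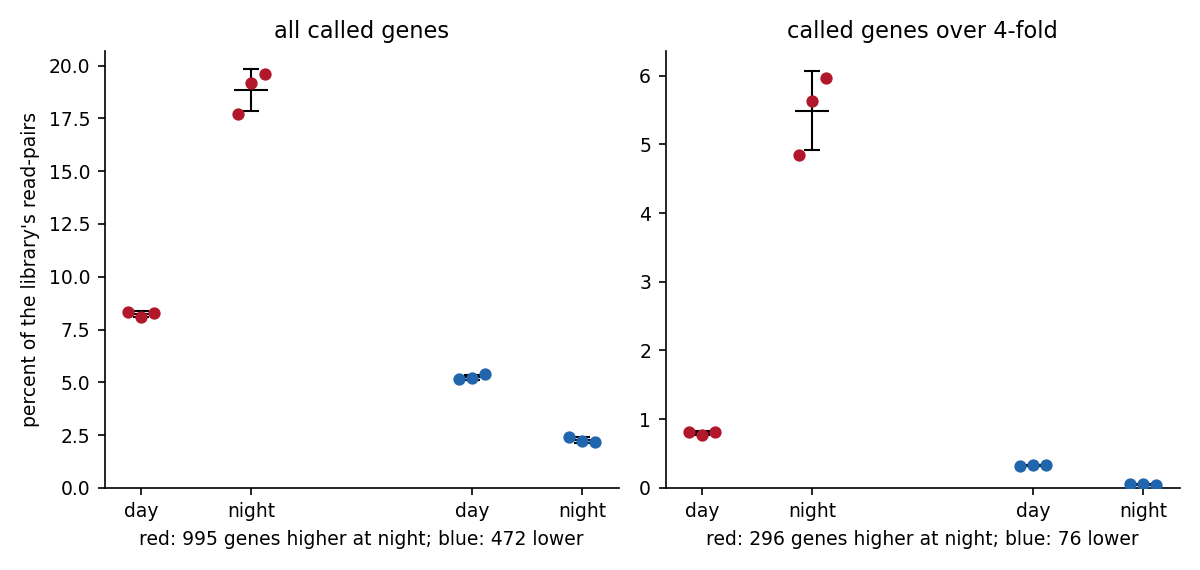
Percent of each Control library's read-pairs on genes that fell on the called genes, for all called genes (left) and those that changed over 4-fold (right). Each point is 1 library, and lines with bars are the mean and SD of 3. The genes higher at night rise from about 8.24% to 18.8% of the read-pairs, and the lower genes fall from 5.24% to 2.26%.

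The balance of higher and lower genes depended on the scaling. Without TMM factors, scaled by library size only, 1586 genes were called, 736 higher and 850 lower, so that 46.4% of the called genes were higher in place of 67.8%. The median log2 fold change of all tested genes was −0.03 with TMM and −0.21 with library size only, and the changes given here are relative to the TMM median. Among genes over 4-fold the direction was less affected, with 250 higher and 103 lower by library size against 296 and 76 with TMM. Leaving out 1 library lowered the number of called genes by over 1.5 times in 4 cases, to 887 without Control day replicate 1, 821 without Control day replicate 2, 808 without Control day replicate 3 and 808 without Control night replicate 2. Without Control night replicate 3 there were 980, of which 279 were lower, and without Control night replicate 1 there were 1488.

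Separation between the 2 times was wide. All 995 higher and all 472 lower genes had night and day libraries that did not overlap, but so did many genes that were not called. Over all tested genes, called or not, the 3 night libraries were all above the 3 day libraries in 3788 (24.2%). They were all below in 3976 (25.5%). At an adjusted p-value under 0.05 by edgeR, 5507 genes (35.3%) differed. The median log2 fold change of the called genes was 1.25 for the higher and −1.06 for the lower.

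Small changes made up much of the list. Of the called genes, 387 higher and 202 lower changed by less than 2-fold. Between 2- and 4-fold there were 312 higher and 194 lower, and between 4- and 8-fold 167 and 51. Larger changes were mostly rises. There were 93 higher and 15 lower genes between 8- and 16-fold, 14 and 6 between 16- and 32-fold, and 22 and 4 above 32-fold.

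Calls were more frequent at high expression, where the standard errors were smaller. Among 4067 genes with a mean normalized count of 5 to 50, 2.14% were called, and the median standard error of the log2 fold change was 0.39. The share called was 6.31% of 2884 genes from 50 to 200, 10.9% of 4977 genes from 200 to 1000 and 16.8% of 3175 genes from 1000 to 5000. Of the 519 genes at 5000 or more, 23.5% were called, 100 higher and 22 lower, with a median standard error of 0.09. In the lowest class, 80 of the 87 called genes had changed over 4-fold, 62 higher and 18 lower, whereas the highest class had 24 higher and 1 lower over 4-fold. At low counts a change of less than 4-fold was thus seldom called.

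**Figure D2:**
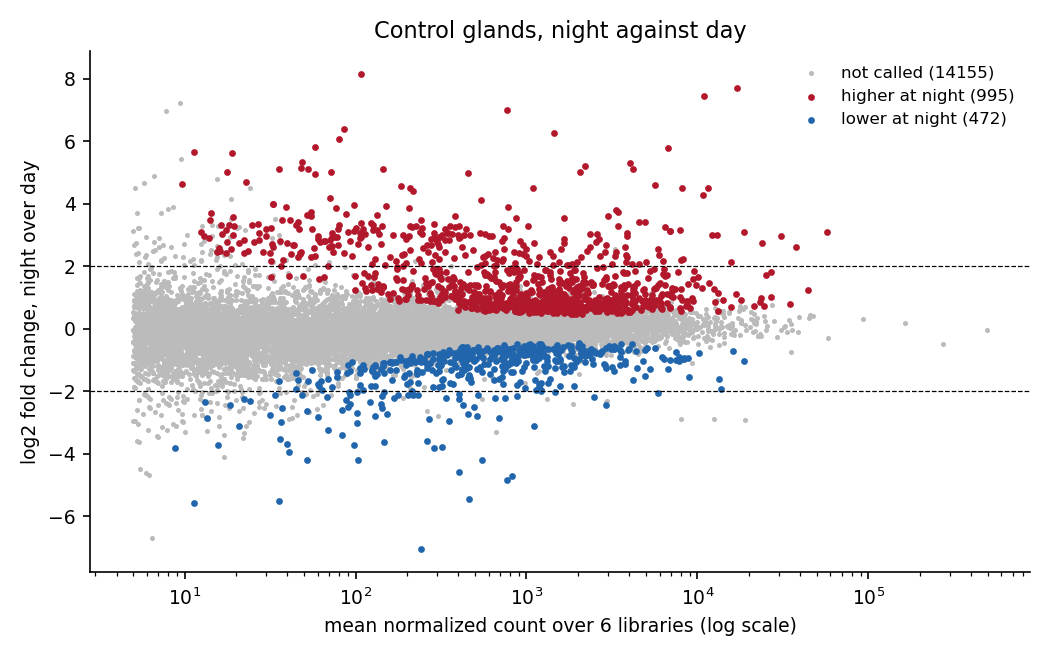
Log2 fold change of night over day against the mean normalized count of the 15622 tested genes in the 6 Control libraries (log axis). Gray points were not called, red points were higher and blue points lower at night, and dashed lines mark 4-fold. The called genes reach down to small changes on the right, and on the left the called genes lie mostly outside the dashed lines.

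Over 4-fold, 372 genes changed (2.38% of those tested), 296 higher (1.89%) and 76 lower (0.486%). By day the 296 genes held 0.808%, 0.763% and 0.814% of the read-pairs, and at night 4.85%, 5.64% and 5.97%. Night expression among them was concentrated in few genes: 13 of the 296 held 50% of their summed night level. At night 24 of the 296 had a mean normalized count over 10000, 103 were over 1000 and 66 were below 100. The most abundant of them at night went from a normalized count of 11945 ± 914 by day to 101819 ± 21677 at night (SD, n = 3 each), a log2 fold change of 3.09 (SE 0.18, edgeR adjusted p = 4.37e-06). The 76 lower genes held 0.329% ± 0.00503 of the read-pairs by day and 0.0511% ± 0.00464 at night (SD, n = 3 each).

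Only a small number of genes went to or from the limit of detection. Of the 995 higher genes, 12 had 3 counts or fewer in every day library, with a median night count of 28.8 per library and a highest of 203. Of the 472 lower genes, 4 had 3 counts or fewer in every night library. In neither set was any gene at 0 in all 3 libraries of the lower time. The 22 genes over 32-fold higher had a median normalized count of 3.46 by day (0.334 to 238) and 193 at night (22.3 to 33897).

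The libraries of one time were not alike in strength. Control night replicate 1 was the lowest of the 3 night libraries for 184 of the 296 genes over 4-fold higher (62.2%) and for 637 of all 995 higher genes (64.0%), while over all tested genes it was the lowest for 37.2%. It was the highest for 39 of the 76 genes over 4-fold lower (51.3%), against 37.7% over all tested genes. Control night replicate 3 was the highest for 170 of the 296 (57.4%). The median distance of the 296 genes from their night mean was −0.14 on the log2 scale in replicate 1, 0.04 in replicate 2 and 0.11 in replicate 3, much less than the night/day difference, whose median was 2.92. Time of collection within the night and RNA quality of single libraries were not tested.

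A group of very short gene models stood out among the large rises. Of the 296 genes over 4-fold higher, 113 (38.2%) had a gene model under 150 bases, of median length 86 bases (61 to 134). Among the 635 tested models under 150 bases, 17.8% were over 4-fold higher at night, against 1.89% of all tested genes. None of the 635 was called lower, where 3.02% of all tested genes were. That share is not matched for level, since the median normalized count of the 635 was 15.6. Of the 4067 tested genes with a mean normalized count of 5 to 50, 65 were called higher and 22 lower. That class includes the short models at those counts, so it is not a separate background. The share was highest from 80 to 89 bases, where 58 of 116 models were over 4-fold higher. It was 23.4% of 77 models from 70 to 79 bases, 30.1% of 83 from 90 to 99 bases and 2.87% of 314 from 100 to under 150 bases. Among the 14987 models of 150 bases or more, 183 were over 4-fold higher (1.22%) and 76 lower (0.507%). Of the 1701 models under 150 bases with any count in these libraries, 635 passed the filter on low counts, against 14987 of 19766 longer ones. The boundary of 150 bases was set after the values were seen, and these counts are a description.

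The short genes rose by similar amounts. Their log2 fold changes had a median of 2.98 with quartiles of 2.73 and 3.21. The choice of genes over 4-fold set the lower limit of 2, and 108 of the 113 were below 4, as were 152 of the 183 longer genes. The 183 longer genes had a median of 2.79 with wider quartiles, 2.33 and 3.60, and reached 8.14. The SD of the log2 fold changes was 0.56 over the short and 1.20 over the longer genes. Standard errors were alike, with medians of 0.22 for the short and 0.19 for the longer genes.

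These short models carried few read-pairs. Their median normalized count was 21.3 by day and 176 at night, and the highest night mean was 1524, against a median of 1106 and a highest of 101819 for the longer genes over 4-fold higher. All 113 together held 0.0314% ± 0.00244 of the read-pairs by day and 0.203% ± 0.0158 at night (SD, n = 3 each). Summed over all 276 tested models from 70 to 99 bases, whether called or not, the normalized count was 8969 to 10312 in the day libraries and 34734 to 42151 in the night libraries, with no overlap. With 3 libraries against 3, an exact permutation test of such a sum cannot go below 0.1 (two-sided). Over all 635 models under 150 bases the sum was 28878 to 52858 by day and 66051 to 72432 at night. Read-pairs were assigned when they overlapped a gene model, so a model shorter than the sequenced fragment counts fragments that extend beyond it. What transcripts these fragments came from, and whether near-identical copies shared them, was not tested.

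**Figure D3:**
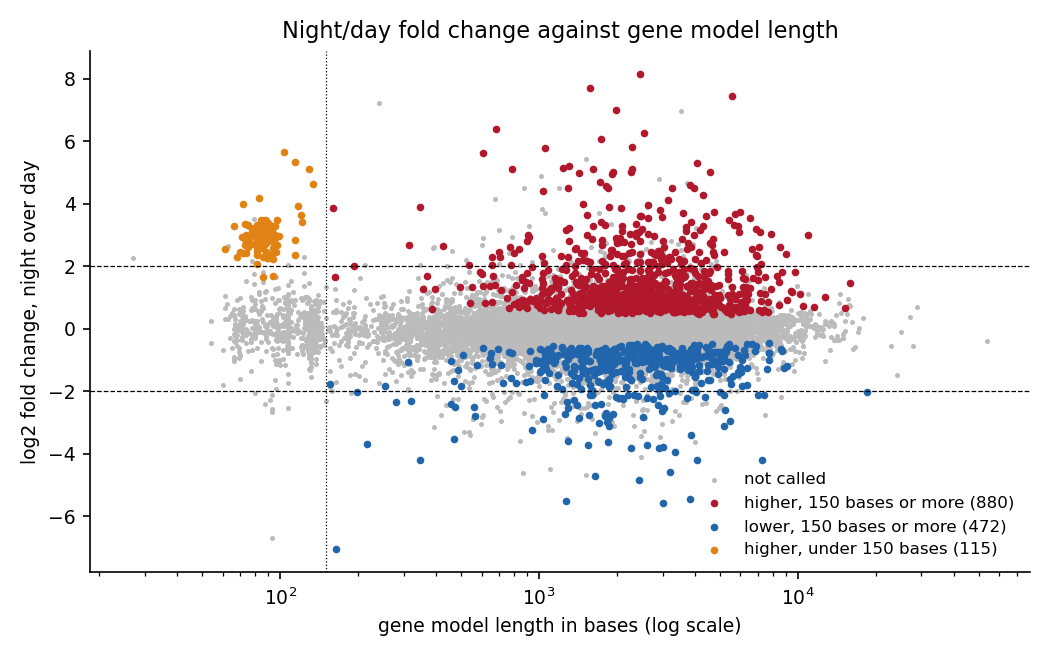
Log2 fold change of night over day against gene model length in bases (log axis) for the 15622 tested genes. The dotted line marks 150 bases and the dashed lines 4-fold. The 115 called models under 150 bases (orange) are all higher at night and gather around a log2 fold change of 3, apart from the longer models that were higher (880, red) or lower (472, blue).

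The same genes were then read in libraries that had not been used to choose them. In Sham glands, 113 of the 113 short genes moved the same way, with a median log2 night/day change of 2.74 (quartiles 2.41 and 2.86), and 111 were higher at an adjusted p-value under 0.05 by edgeR, where 9.35% of all genes tested in Sham were higher. Of the 183 longer genes, 182 were tested in Sham, 179 were higher at night and 171 passed the same test, with a median of 2.73 (quartiles 2.01 and 3.61). The 76 lower genes were less regular: 66 of 75 tested in Sham were lower at night and 47 passed the test (background 11.2%). Their median was −1.96, against −2.61 in Control. The Control median comes from the libraries in which the genes were chosen for a large change, so a smaller change elsewhere can follow from that choice. At the adjusted p-value under 0.001 used in Control, 51 of the 113 short, 108 of the 182 longer and 15 of the 75 lower genes passed in Sham. At that threshold 265 (1.71%) of the 15455 genes tested in both were higher in Sham and 100 were lower. Over all genes the Sham median was −0.05.

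Replicates of Sham glands were spread widely for the lower genes. The SD of the log2 level over 3 libraries was above 1 in Sham night for 26 of the 76 lower genes (34.2%), 16 of the 183 longer higher genes (8.74%) and 1 of the 113 short ones (0.885%). Over all tested genes it was above 1 for 6.46%. In Sham day it was above 1 for 12 of the 76 lower genes (15.8%), against 2.99% of all tested genes. The Control libraries are not set beside these values, since genes that passed the test there had to have a small spread.

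The unreplicated pools of pineal glands gave the same order. From the day to the night pool, 111 of the 113 short genes rose, with a median log2 difference of 2.62, and 177 of the 183 longer genes rose, with a median of 2.46. Of the 76 lower genes, 65 fell, with a median of −1.44, and the median over all tested genes was −0.000107. These differences are of log2(normalized count + 1) between 1 library and 1 library and have no replicate check.

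The pools were also set against the library of other tissues, over all genes of each group with no filter on level. That library was taken at ZT7, so the night pool differed from it in both tissue and time. For genes chosen by their night/day change, the night values include that change. The short genes had a median log2 difference of 3.47 in the night pool (quartiles 2.68 and 4.08) and 0.73 in the day pool (quartiles 0.13 and 1.46), and 112 of the 113 were higher than in the mixture at night and 88 by day. For the 183 longer genes that rose, the medians were 2.23 at night and −0.39 by day, with 146 and 74 genes higher than in the mixture. The 76 lower genes had medians of −0.52 at night and 0.92 by day, and all tested genes 0.12 and 0.10. Of all tested genes, 54.6% were higher than in the mixture at night and 54.4% by day. All 635 tested models under 150 bases had medians of 0.81 at night and 0.53 by day, so the day value of the 113 was near theirs. In raw counts, the median short gene had 12 counts in the day pool, 95 in the night pool and 9 in the mixed tissue, so its values by day and in the mixture rest on few read-pairs. These are again single libraries with no replicate check.

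In cultured glands the comparisons with norepinephrine (NE) and dibutyryl cyclic AMP (DBcAMP) share their untreated libraries. Of 109 short genes tested with NE, 109 were higher than in untreated glands, with a median log2 change of 1.40, and 74 passed an adjusted p-value under 0.001 by edgeR (background 6.69% higher). With DBcAMP, 109 of 109 were higher, with a median of 1.28, and 59 passed (background 9.62%). The longer genes had medians of 1.65 with NE (131 of 173 passed) and 1.73 with DBcAMP (129 of 174 passed). The genes lower at night had medians of −0.55 and −0.32, with 20 and 15 of 67 passing in the same direction (backgrounds 4.65% and 7.08%).

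Without their neural input, glands held the short genes between the day and night levels of unoperated glands. As the median log2 level against the Control day mean, the short genes were at 2.76 to 3.04 in Control night, 2.65 to 3.36 in Sham night and 0.15 to 0.31 in Sham day. They were at 0.68 to 1.01 in DCN day, 1.21 to 1.51 in DCN night, 1.19 to 1.42 in SCGX day and 1.28 to 1.42 in SCGX night. The longer genes that rose were at −0.09 to 0.26 in the 6 DCN libraries and 0.32 to 0.69 in the 6 SCGX libraries. An intermediate level was not particular to the short genes. The 76 lower genes were at −1.18 to −0.50 in DCN and −1.06 to −0.72 in SCGX, against −2.60 to −2.39 in Control night. All 635 tested models under 150 bases were at 0.20 to 0.32 in Control night, 0.13 to 0.34 in DCN and 0.16 to 0.29 in SCGX. Between night and day within DCN, 106 of 108 short genes were higher at night, with a median log2 change of 0.54 (quartiles 0.44 and 0.67), against 117 of 170 longer genes with a median of 0.15 and 49.1% of all genes tested. Within SCGX, 72 of 109 short genes were higher at night, with a median of 0.06. There, 56 of 173 longer genes were higher at night, with a median of −0.24, and 49.9% of all genes tested. Gene by gene, 0 of 15344 genes tested in both Control and DCN passed an adjusted p-value under 0.05 by edgeR in DCN. In SCGX, 0 of 109 short and 3 of 173 longer genes passed as higher at night. Of these 282 genes together, 15 passed there as lower at night. The counts of genes higher at night are over genes that share libraries, and no test was made of those counts.

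**Figure D4:**
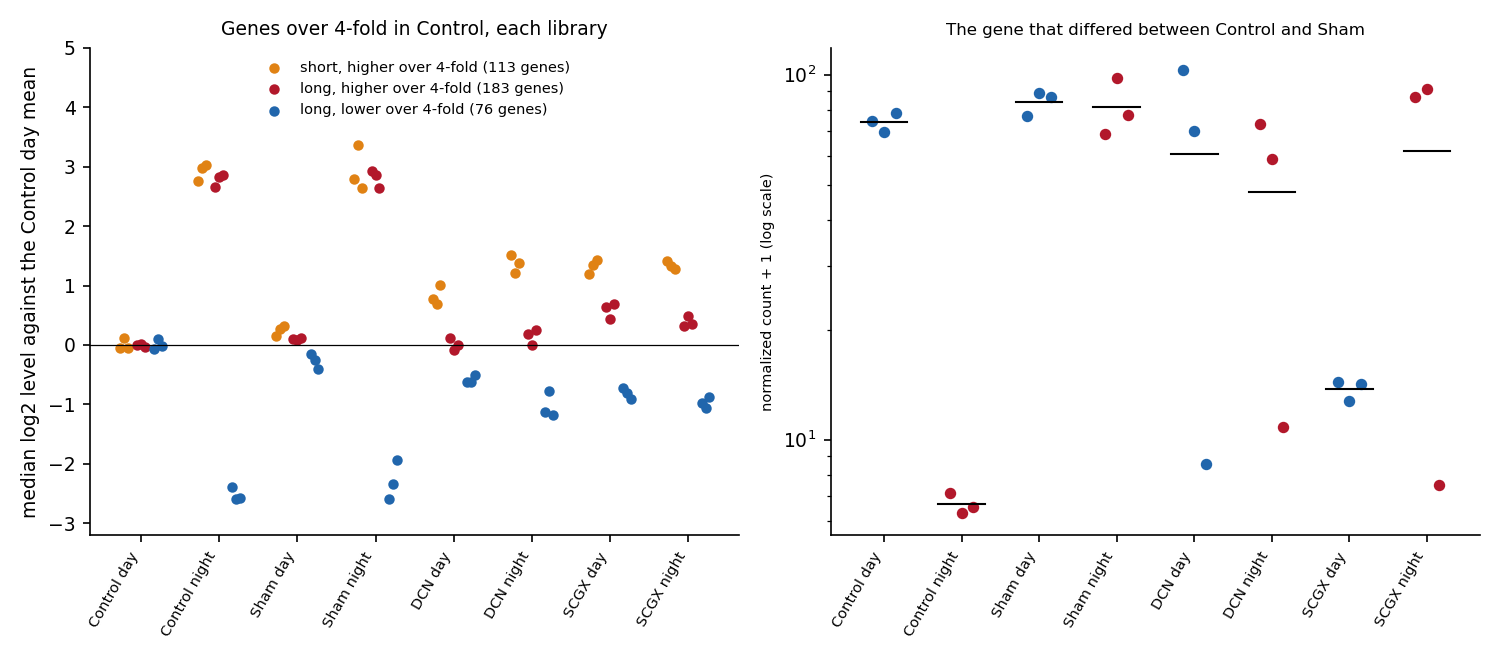
Left, median log2 level against the Control day mean in each of the 24 in vivo libraries, for the 113 short genes (under 150 bases) and 183 long genes over 4-fold higher in Control night and the 76 long genes over 4-fold lower. The Control values follow from how the genes were chosen. Right, normalized count + 1 (log axis) of the gene whose night/day change differed between Control and Sham. Points are libraries, blue for day and red for night, and lines are means of 3.

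ENSRNOG00000013838 had the largest rise. It had 2, 0 and 0 counts in the day libraries and 195, 171 and 242 at night, so the groups were far apart. The fitted log2 fold change was 8.14 (SE 0.48, edgeR adjusted p = 4.76e-06), but with 2 counts by day in all, the ratio of summed normalized counts was 337 with an exact 95% interval of 93.0 to 2792, which covers counting error only. The fitted value depended on those 2 counts, both in Control day replicate 1: it was 10.74 without that library and 5.75 with DESeq2's fold change prior, and the gene was called in both fits. In Sham it was 1.86 to 3.00 by day and 65.9 to 512 at night in normalized counts, again with no overlap. In DCN and SCGX no library held more than 14.5. The pineal pools had 16 counts by day and 227 at night, and the mixed tissue 68.

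ENSRNOG00000011182 combined a large rise with high abundance. Its counts were 201, 135 and 172 by day and 27762, 31517 and 36828 at night, a log2 fold change of 7.72 (SE 0.21, edgeR adjusted p = 1.53e-07). Night replicate 1 was the lowest of its night libraries. In Sham it was 188 ± 34.1 by day and 34454 ± 5288 at night (normalized counts, SD, n = 3 each), and the night/day change did not differ detectably from that of Control (log2 difference 0.19, SE 0.25, edgeR adjusted p = 0.849). In DCN it was 2206 ± 487 by day and 4139 ± 1787 at night, and in SCGX 8958 ± 2138 and 5893 ± 755 (SD, n = 3 each). Every DCN and SCGX library thus lay above every day library and below every night library of Control and Sham. The pineal pools had normalized counts of 396 by day and 58589 at night, and the mixed tissue 37.4.

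ENSRNOG00000034445 had the largest fall, with a gene model of 164 bases. Its counts were 627, 620 and 235 by day and 6, 2 and 2 at night, a log2 fold change of −7.04 (SE 0.61, edgeR adjusted p = 4.50e-05). In Sham, normalized counts were 5.11 to 360 by day and 2.15 to 330 at night, with overlap (log2 change 0.60, SE 1.70, adjusted p = 0.842), but the difference between Control and Sham did not pass the test (−7.72, SE 2.37, edgeR adjusted p = 0.587). In DCN it was 173 to 288 by day and 2.95 to 86.4 at night, with no overlap and lower at night (log2 change −2.88, adjusted p = 0.516). In SCGX it was 4.41 to 656 by day and 0.942 to 246 at night, with overlap. Sham day, Sham night, DCN night, SCGX day and SCGX night thus each held libraries far apart. With all 24 in vivo libraries in 1 model the edgeR adjusted p for Control rose to 0.0145. The pineal pools had 0 counts by day and 3 at night.

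ENSRNOG00000013610 was the next largest fall. It had 14, 23 and 35 counts by day and 0, 0 and 1 at night, with an edgeR adjusted p of 0.000628 and a ratio of summed normalized counts of 64.9 (exact 95% interval 11.3 to 2598, counting error only). In Sham it was low at both times, with counts of 0, 4 and 0 by day and 0, 2 and 6 at night, too low to be tested there. Its call was lost without Control day replicate 2 (adjusted p = 0.00313), Control day replicate 3 (0.00270), Control night replicate 1 (0.00239), Control night replicate 2 (0.00391) or Control night replicate 3 (0.00213). It was also lost with the replicate number as a block (0.00156) and with all 24 in vivo libraries in 1 model (0.00809). The difference between Control and Sham did not pass the test (edgeR adjusted p = 0.559). The mixed tissue had 108 counts of it, against 4 and 1 in the day and night pools.

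**Figure D5:**
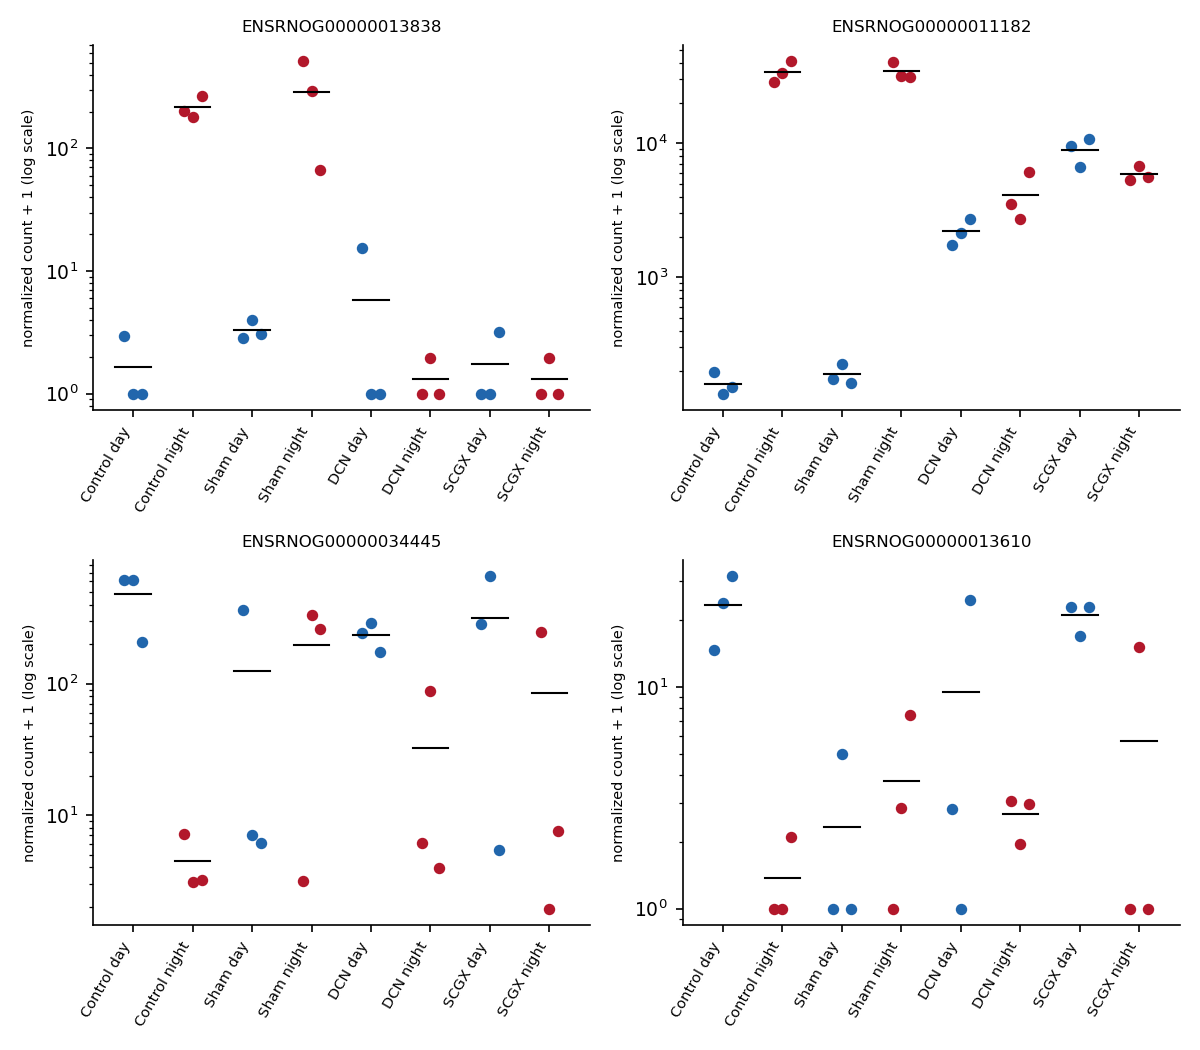
Normalized count + 1 (log axis) of the 4 followed genes in the 24 in vivo libraries. Points are libraries, blue for day and red for night, and lines are means of 3. Both rises recur in Sham, with day and night libraries apart, whereas ENSRNOG00000034445 overlaps between Sham day and night and ENSRNOG00000013610 is low at both times in Sham.

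The night/day change of unoperated glands was compared with that after sham surgery by an interaction of surgery and time over 12 libraries. By edgeR, 1 of 15893 genes passed an adjusted p-value under 0.001 (0.00629%), and 1290 (8.12%) were under an unadjusted p of 0.05. That gene, with a model of 216 bases, had 75, 69 and 89 counts in Control day and 6, 5 and 5 in Control night. In Sham it had 82, 88 and 84 counts by day and 63, 106 and 71 at night, with overlap. In Control it fell by 3.68 on the log2 scale (SE 0.25, edgeR adjusted p = 1.14e-05), and the change in Sham was −0.12 (adjusted p = 0.754). The difference between them was −3.64 (SE 0.29, adjusted p = 9.00e-04), and it was not past the threshold when any one of 11 of the 12 libraries was left out (edgeR adjusted p 0.00152 to 0.00997), although the difference stayed between −3.72 and −3.50 in all 12 such fits. A p that misses the threshold elsewhere does not show that Control and Sham changed alike.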

How the data were processed

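The 6 Control libraries, 3 per time, were compared. The authors prepared stranded, ribo-depleted total RNA libraries, aligned read-pairs to the rn4 assembly with STAR (version 2.3.1y in the submitters' processing notes) and assigned them to Ensembl genes, using the union rule of HTSeq. The deposited count of a gene is its whole number of read-pairs and is not normalized. From the RPKM, which the authors also deposited and which rescale these counts by length and total, only gene model lengths were recovered. Counts were tested with edgeR 4.0.16 in R 4.3.3 (TMM, quasi-likelihood F-test, a minimum mean normalized count of 5 per gene, Benjamini-Hochberg adjustment over all genes tested). DESeq2 1.42.0 was an alternative. The tests were checked on simulated counts. Single pools were compared as log2(normalized count + 1). Members, groups of genes and tests were chosen with earlier results of these data known. Because 0 identifiers matched a symbol, the planned gene lists and the rule for named genes were reduced to the 2 largest rises and 2 largest falls by fitted log2 fold change. The labels do not say that replicate pools with the same number belong together.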

Additional observations from a re-analysis of the deposited data

Results flagged for a closer look

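The night/day change of 1 gene differed between unoperated and sham-operated glands by −3.64 on the log2 scale (Control minus Sham), by a test of the difference itself (edgeR interaction, adjusted p = 9.00e-04). Its levels across the 24 in vivo libraries fell into 2 ranges, with normalized counts of 5.30 to 13.4 in 9 libraries and 57.9 to 102 in the other 15. The 9 low libraries were 4 taken by day and 5 at night: the 3 Control night libraries, the 3 SCGX day libraries, DCN day replicate 3, DCN night replicate 3 and SCGX night replicate 3. No library lay between the ranges. In DCN day, DCN night and SCGX night, libraries of one group lay in both ranges, so the level also differed between pools taken at the same time after the same surgery. The pineal pools had 106 counts by day and 74 at night, and the mixed tissue 73. The cause was not tested.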

How the results depend on the processing

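The number of genes over 4-fold stayed within 1.5 times of 372 under every alternative (256 to 435), and the 113 short genes among them within 86 to 122. Other counts moved more. DESeq2 called 2754 genes (1699 higher, 1055 lower) and, with its fold change prior, 2767 (1706 and 1061). With all 24 in vivo libraries in 1 model, 2420 were called (1573 and 847). Lower genes numbered 850 by library size only and 725 without a count filter. With the replicate number as a block, 902 were called (644 and 258). Samples with the same number did not deviate together (correlations −0.03, 0.03 and −0.03), so the number was not used as a pairing. Leaving out 1 library gave 808 to 1488 called, 570 to 1058 higher, 212 to 430 lower and 296 to 372 over 4-fold. Without gene models under 150 bases, an alternative chosen after the data were seen, 1344 genes were called and 256 were over 4-fold, 183 higher and 73 lower. For the Control and Sham interaction the count was 0 by library size only, 0 with edgeR's form adjusted for small counts, 0 with the replicate block, 9 by DESeq2, 2 without a filter and 0 to 2 when 1 library was left out. At an unadjusted p under 0.05, the library size, small count and block fits had 1286, 1180 and 925 genes. The followed genes reversed under no alternative run. Except by their construction (fewer genes or libraries), the cause of these differences was not tested. Whether the lower share of calls at low counts came from depth or from fewer changes was not tested.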
